A study of Mus musculus with 6 samples.

Results

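The 8 genes described here encode small secreted proteins and enzymes, grouped here as gland products outside the lipocalin and BPI-fold families. They are the secretoglobins Scgb1b27, Scgb2b27, Scgb1c1 and Scgb1a1, the enzymes Klk1 and Car6, and the secreted proteins Dcpp1 and Reg3g. They were taken by symbol from a table of 24315 rows, in which each of the 8 had 1 row. The set was selected on gene symbol, as products of serous glands, with the closed and open FPKM values of these same libraries already known. The difference between the sides is therefore given as a description, and no test of it is read as support. Whole tissue gives no cell of origin.

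RNA was taken from the olfactory mucosa, which carries the odour-sensing epithelium and its glands. The animals were C57BL/6 mice, wild type and at postnatal day 11, each with 1 nostril closed. The closed nostril and the open nostril of 3 mice gave 1 library each, so that 3 closed libraries stand against 3 open ones, to find transcripts whose level depends on activity in the nose. No unoperated mouse was analysed here, and the length of the closure is not given in the sources used here. Values are FPKM, fragments scaled by transcript length and by mapped fragments, and changes are closed minus open on log2(FPKM + 1).

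Secretoglobins are small secreted proteins that pair through disulfide bonds into dimers with a pocket for lipophilic molecules. In mice, a subunit of the Scgb1b kind pairs with one of the Scgb2b kind to form androgen-binding protein, a protein of saliva, tears and nasal secretions. Serous glands also release enzymes and antibacterial proteins that condition the fluid over the epithelium, in which odorants dissolve before they reach the neurons.

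The libraries held 24958172 to 43584803 reads, of which 93.28% to 96.99% were aligned, with an RNA integrity number of 10 in each. Genes that mark the tissue were abundant on both sides. The neuronal Omp averaged 2073 ± 138 FPKM on the closed and 1759 ± 410 FPKM on the open side (SD, n = 3 each), and the sustentacular Cyp2g1 averaged 1204 ± 124 FPKM closed and 1456 ± 170 FPKM open. Small RNA rows held 11.3% of the summed FPKM of closed replicate 1, which stood apart from the 3.47% to 5.27% of the remaining libraries.

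Of the 8 genes, 4 lay far lower on the closed side with no overlap between the sides, namely Scgb1b27, Scgb2b27, Klk1 and Car6. Scgb1c1, Dcpp1 and Reg3g overlapped between the sides, and Scgb1a1 was close to 0 throughout. In bulk tissue, fewer cells of a type and less RNA per cell cannot be told apart. The 7 genes other than Scgb1a1 had a mean of at least 1 FPKM and entered the fit across 14788 rows. Sides failed to overlap, with the closed side lower, in 2.09% of all rows tested. A log2 change below -3, a limit set after the values were seen, was found in the same 4 genes and in 0.237% of all rows (35, of which 13 are not small RNA rows).

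**Figure D1:**
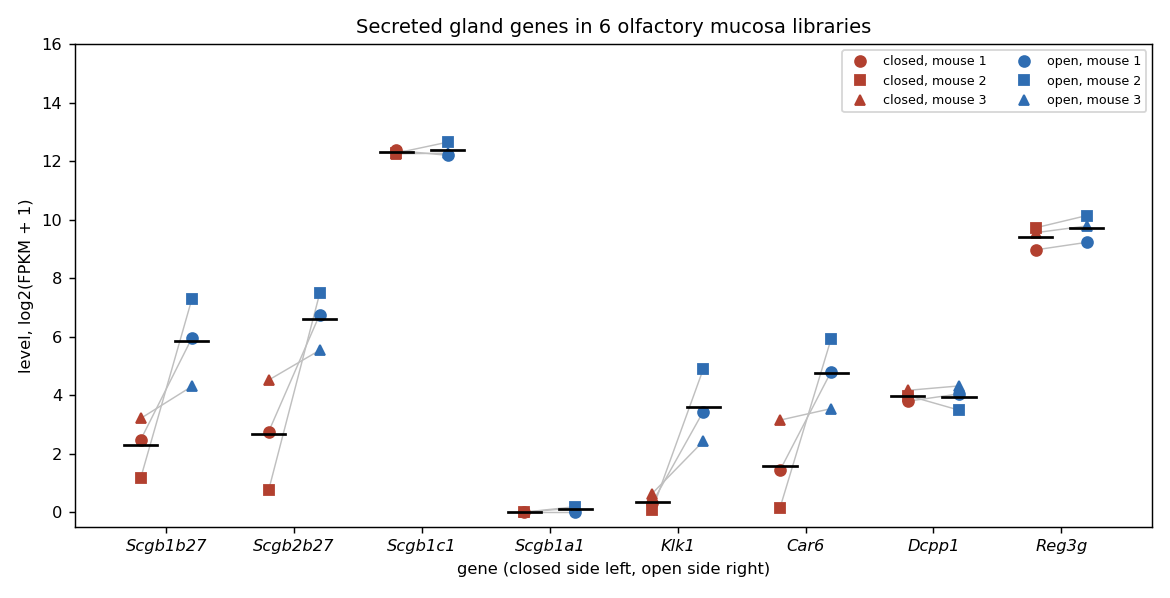
Level of the 8 genes in each library as log2(FPKM + 1), with closed libraries in red on the left and open libraries in blue on the right of each gene, symbols for the mice, grey lines joining the sides of a mouse and black bars for the means of 3 libraries. Scgb1b27, Scgb2b27, Klk1 and Car6 are lower on the closed side in each mouse, whereas Scgb1c1, Dcpp1 and Reg3g overlap.

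Scgb1b27, the alpha subunit of an androgen-binding protein, measured 4.56, 1.24 and 8.22 FPKM on the closed side of mice 1, 2 and 3, against 60.7, 154.3 and 18.7 FPKM on their open side. The lowest open library was thus above the highest closed one, both being from mouse 3. The closed level was 7.51% of the open level in mouse 1, 0.807% in mouse 2 and 44.0% in mouse 3. The side means were 4.67 ± 3.49 FPKM closed and 77.9 ± 69.5 FPKM open (SD, n = 3 each), with a log2 change of -3.56 (SE 0.74).

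Scgb2b27, the beta-gamma subunit that lies next to Scgb1b27 in the genome, measured 5.69, 0.671 and 21.8 FPKM on the closed side and 106.7, 177.0 and 45.3 FPKM on the open side of the same mice. Its closed level was 5.33%, 0.379% and 48.2% of the open level in mice 1, 2 and 3, and again mouse 3 differed least. The side means were 9.40 ± 11.1 FPKM closed and 109.7 ± 65.9 FPKM open, with a log2 change of -3.92 (SE 0.86).

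The 2 subunits did not keep a fixed ratio. Scgb2b27 over Scgb1b27, a ratio of FPKM and so per length, stood at 1.25, 0.539 and 2.66 in the closed libraries of mice 1, 2 and 3, and at 1.76, 1.15 and 2.43 in their open libraries. It was highest in mouse 3 and lowest in mouse 2 on either side.

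Klk1, tissue kallikrein, is a serine protease that releases kinins from kininogen. It measured 0.241, 0.0457 and 0.554 FPKM on the closed side, against 9.85, 28.7 and 4.37 FPKM on the open side of mice 1, 2 and 3. The steps between low values imply about 3, 1 and 10 fragments in the closed libraries and 221, 501 and 102 in the open ones, taking the smallest whole numbers that the closed values allow. On that count its closed side rested on 14 fragments in all, of which 10 were in closed replicate 3. Whole fragments are assumed, although reads in sequence shared with other kallikreins may be split among the copies. Klk1b26 was listed at 0.000240 FPKM in closed replicate 1, far less than 1 fragment of Klk1 would give.

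From these fragments the closed level of Klk1 was 2.45% of the open level in mouse 1 (exact 95% interval 0.502% to 7.27%). It was 0.159% in mouse 2 (0.00402% to 0.891%) and 12.7% in mouse 3 (5.92% to 24.4%). These intervals cover counting error only, on the assumption of whole fragments, and those of mice 2 and 3 did not overlap. Pooled over the mice the closed level was 2.06% of the open level (1.12% to 3.47%), an interval that does not hold the spread between mice. The pooled value was 0.896% without closed replicate 3, 3.28% without closed replicate 2 and 3.80% without open replicate 2. The log2 change was -3.25 (SE 0.53). That size depends on the pseudocount because the closed values lie below 1 FPKM, and it was -5.09 with a pseudocount of 0.1 and -1.67 with one of 5.

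Car6, the secreted carbonic anhydrase of saliva, which turns carbon dioxide and water into bicarbonate, measured 1.70, 0.107 and 7.85 FPKM on the closed side and 26.9, 59.8 and 10.6 FPKM on the open side. In mouse 3 its closed level was 73.8% of the open level, the smallest relative difference between sides among these 4 genes in any mouse. In mouse 1 it was 6.31%. In mouse 2 it was 0.179%, resting on 2 implied fragments in closed replicate 2, the smallest whole number that the closed values allow. With 2 fragments the exact 95% interval for counting error was 0.0216% to 0.648%. A fragment of Car6 would then be worth more than the 0.0457 FPKM taken for Klk1 in that library. Yet its longest transcript is longer (1567 against 954 bases), so the counts of Car6 may be higher than given. Pooled over the mice the closed level was 10.5% of the open level, with 121 of the 141 closed fragments of this count in closed replicate 3. The pooled value was 2.28% without closed replicate 3, 17.8% without closed replicate 2 and 16.9% without open replicate 2. The log2 change was -3.18 (SE 0.78).

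In the limma fit over all rows, 0 of the 7 genes were past an adjusted p of 0.05, with adjusted p from 0.261 for Klk1 upward. Unadjusted, 4 of the 7 lay under 0.05, beside 215 of the 14788 rows. The same fit called 0.0406% of all rows lower and 0.00676% higher on the closed side. With the mouse as a block, 0.0338% of rows were called in either direction and again 0 of the 7, where the lowest adjusted p was 0.581. Among the other 12 alternatives, Klk1 was past the test in 1, without open replicate 3 (adjusted p = 0.0297, in a range from 0.0297 to 0.981).

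These 4 genes ranked the 6 libraries in the same way. From low to high the order was closed 2, closed 1, closed 3, open 3, open 1 and open 2, so the mouse with the lowest closed value had the highest open value. Of all rows tested, 0.101% (15) had this order, an order looked for after it had been seen. Of these, 9 had a log2 change below -1.5. They were the 4 genes themselves, the odorant-binding protein gene Obp1a (-4.26), the lipocalin gene Lcn11 (-4.08), Gm14743 (-4.41), the major urinary protein gene Mup4 (-1.76), and Crisp1 (-2.37), a gene of the cysteine-rich secretory proteins known from the epididymis.

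**Figure D2:**
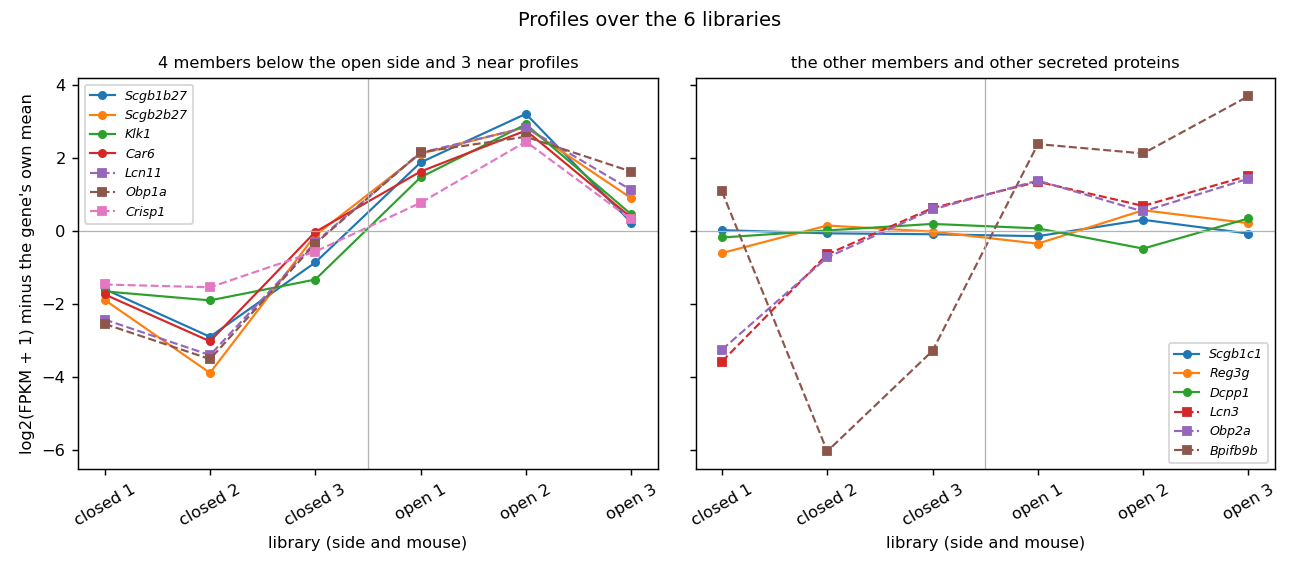
Level in each of the 6 libraries as log2(FPKM + 1) minus the gene's own mean, for the 4 genes with 3 near profiles in the left panel and for the other genes with 3 further secreted protein genes in the right panel, solid lines being the genes described and dashed lines the others. The left panel shows 1 shared shape with its lowest point at closed 2 and its highest at open 2, which the genes in the right panel do not have.

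Likeness was also measured as the root-mean-square distance between profiles of log2(FPKM + 1), each centred on its own mean, over the 6 libraries. This distance is not scaled for the size of a change. The difference between sides, known when the genes were chosen, therefore enters it beside the order of the libraries. Among 14700 other rows, with small RNA rows left out, Lcn11 lay nearest to Scgb2b27 (distance 0.32), to Car6 (0.51) and to Scgb1b27 (0.61). Crisp1 lay nearest to Klk1 (0.50), followed by the neuronal S100a5 (0.76) and Mup4 (0.84). S100a5 measured 239.0, 300.5 and 208.0 FPKM on the closed side and 1997, 2102 and 1951 FPKM on the open side of mice 1, 2 and 3, so that its mice lay close together and not in the order of Klk1. Obp1a and then Gm14743 followed for Scgb2b27 (0.45 and 0.46). Gm14744, an odorant-binding protein gene in the RefSeq synonyms, came second for Car6 (0.63). Between the genes described, Scgb1b27 and Car6 were each other's nearest row of all (0.41), at less distance than Scgb1b27 and its partner subunit Scgb2b27 (0.61). The 6 libraries share their mice, so these distances are a description.

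Other secreted proteins of the nose had large differences with another order of the mice. Lcn3, a nasal lipocalin, measured 25.1, 198.9 and 480.8 FPKM in the closed and 792.9, 500.8 and 890.0 FPKM in the open libraries of mice 1, 2 and 3, so that mouse 1 differed most. Bpifb9b, a BPI-fold protein, measured 138.5 and 5.74 FPKM in closed replicates 1 and 3, was listed at 0 in closed replicate 2, and measured 342.2, 286.3 and 852.0 FPKM in open libraries. Of the 7 lipocalin rows tested, 3 had the order of Klk1 (Obp1a, Lcn11 and Mup4), and of the 8 BPI-fold rows 0 had it. These rows were listed by symbol and leave out Gm14744, which had a log2 change of -3.61, no overlap and another order.

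**Figure D3:**
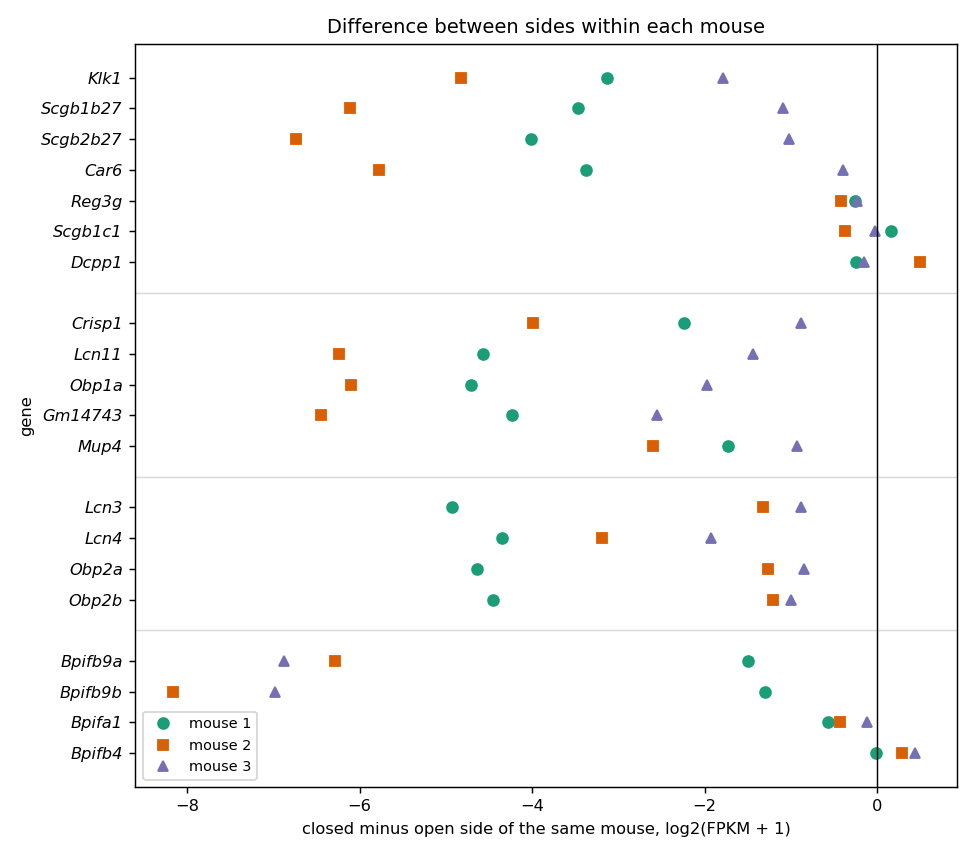
Closed minus open side within each mouse on log2(FPKM + 1), for the genes described in the top block, 5 of the genes with near profiles in the second, and lipocalin and BPI-fold genes in the lower blocks. Mouse 2 differs most and mouse 3 least for Klk1, Scgb1b27, Scgb2b27, Car6, Crisp1, Lcn11, Obp1a, Gm14743 and Mup4, whereas mouse 1 differs most for Lcn3, Lcn4, Obp2a and Obp2b and least for Bpifb9a and Bpifb9b.

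The 4 genes also varied widely within a side. They were set apart by values of these same libraries, and Klk1 reached the floor of 1 FPKM only through its open libraries. The spread is therefore given as a description, and the rows beside it were not matched for level. Over the 3 open libraries the SD of log2(FPKM + 1) was 1.49 for Scgb1b27, 1.24 for Klk1, 1.19 for Car6 and 0.98 for Scgb2b27, against a median of 0.14 over all rows tested. At most 0.555% of rows had a larger open SD than any of these 4. Over the closed libraries the SD was 1.89 for Scgb2b27 and 1.03 for Scgb1b27, with Car6 between them, and 0.29 for Klk1, whose closed values lie close to 0. The median row had 0.18 there.

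Xist, transcribed in female mice, stayed below 1 FPKM in both libraries of mouse 1 and reached at least 28.8 FPKM in each library of mice 2 and 3. Mouse 1 lay between mice 2 and 3 in each of the 4 genes on either side. As mouse 1 alone had Xist this low, sex cannot be told apart from the mouse, and its part was not tested.

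The regions around the transcription starts of the genes are given from RefSeq (GRCm38.p6), as 250 bases before to 50 after the listed start, 5′ to 3′ on the gene's own strand. The deposited values rest on mm9, so these coordinates belong to RefSeq alone. Windows were found for 7 of the 8 genes, Scgb1a1 being the one without. Of these, 6 are shown: the first 4 belong to the genes that were low on the closed side together, and Scgb1c1 and Reg3g are the abundant genes whose sides overlapped. Capitals mark each TATAAA, the letters of a TATA box, or its reverse complement TTTATA.
Scgb1b27 (chr7:34021231-34021530, plus strand): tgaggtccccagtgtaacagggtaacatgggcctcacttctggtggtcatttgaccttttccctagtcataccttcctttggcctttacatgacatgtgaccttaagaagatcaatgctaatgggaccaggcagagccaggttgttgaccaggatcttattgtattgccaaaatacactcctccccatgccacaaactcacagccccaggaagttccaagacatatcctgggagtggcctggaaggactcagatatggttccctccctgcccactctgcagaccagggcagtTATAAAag
Scgb2b27 (chr7:34013893-34014192, minus strand): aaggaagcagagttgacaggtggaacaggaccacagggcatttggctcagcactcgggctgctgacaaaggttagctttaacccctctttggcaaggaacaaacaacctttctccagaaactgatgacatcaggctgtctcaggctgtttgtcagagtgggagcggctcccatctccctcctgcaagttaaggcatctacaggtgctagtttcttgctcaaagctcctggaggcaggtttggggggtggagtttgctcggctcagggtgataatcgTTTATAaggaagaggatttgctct
Klk1 (chr7:44225110-44225409, plus strand): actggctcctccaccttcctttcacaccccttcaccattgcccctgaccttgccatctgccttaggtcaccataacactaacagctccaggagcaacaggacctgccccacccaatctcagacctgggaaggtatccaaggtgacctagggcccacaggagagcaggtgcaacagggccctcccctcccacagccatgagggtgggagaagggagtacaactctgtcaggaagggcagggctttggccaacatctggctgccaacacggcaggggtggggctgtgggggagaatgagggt
Car6 (chr4:150201086-150201385, minus strand): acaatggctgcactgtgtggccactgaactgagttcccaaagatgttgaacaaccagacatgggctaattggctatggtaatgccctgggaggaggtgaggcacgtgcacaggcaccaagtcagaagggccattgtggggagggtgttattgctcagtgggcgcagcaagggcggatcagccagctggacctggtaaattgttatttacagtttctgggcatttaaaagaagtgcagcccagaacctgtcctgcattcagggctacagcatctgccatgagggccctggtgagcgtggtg
Scgb1c1 (chr7:140845315-140845614, plus strand): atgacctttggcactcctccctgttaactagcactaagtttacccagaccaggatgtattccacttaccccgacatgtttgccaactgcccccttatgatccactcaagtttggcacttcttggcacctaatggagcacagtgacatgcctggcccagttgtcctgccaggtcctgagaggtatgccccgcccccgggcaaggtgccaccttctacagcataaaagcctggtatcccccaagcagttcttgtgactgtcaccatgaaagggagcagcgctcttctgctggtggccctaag
Reg3g (chr6:78468825-78469124, minus strand): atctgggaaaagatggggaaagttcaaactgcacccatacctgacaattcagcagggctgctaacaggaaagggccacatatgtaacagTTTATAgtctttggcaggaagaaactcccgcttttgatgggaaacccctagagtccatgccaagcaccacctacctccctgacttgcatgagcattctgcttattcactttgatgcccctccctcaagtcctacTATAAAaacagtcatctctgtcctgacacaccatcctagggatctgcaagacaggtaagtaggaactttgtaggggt

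TATAAA occurred in Scgb1b27 from base 43 after the listed start, and in Reg3g from base 27 before it, both on the gene's strand. Its reverse complement occurred in Scgb2b27 and in Reg3g. Klk1, Car6 and Scgb1c1 had no such match in these windows. Of 32851 windows of all genes, 13.6% held TATAAA on either strand. The SOX core ACAANG matched in Scgb2b27, Car6, Dcpp1 and Reg3g, against 41.2% of all windows, and CCAAT matched in Klk1 and Car6, against 37.4%. The forkhead motif TGTTTAC matched in 0 of the 7 windows, against 3.65% of all. So none of the 4 motifs was shared by the windows of Scgb1b27, Scgb2b27, Klk1 and Car6. No match overlapped a match of another motif in these windows, and a match is a run of letters, not a binding site.

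By chromosome, 4 of the 8 genes lie on chromosome 7 (Scgb1b27, Scgb2b27, Scgb1c1 and Klk1), and 1 each on chromosomes 4 (Car6), 6 (Reg3g), 17 (Dcpp1) and 19 (Scgb1a1). Scgb1b27 and Scgb2b27 are neighbours on opposite strands in GRCm38, and are transcribed away from each other. Scgb1c1 shares the chromosome, and its sides overlapped.

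Scgb1c1 was the most abundant row of the table once small RNA rows were left out. This secretoglobin measured 5259, 4951 and 4863 FPKM in the closed libraries and 4689, 6401 and 4929 FPKM in the open libraries of mice 1, 2 and 3. The sides overlapped, with means of 5024 ± 208 FPKM closed and 5340 ± 927 FPKM open (SD, n = 3 each) and a log2 change of -0.07 (SE 0.31). Its sign turned without open replicate 2 (0.06). The nearest profiles were those of the channel subunit gene Lrrc8e (distance 0.02), the cytochrome gene Cyp4f17 (0.03) and the glutathione transferase gene Gstt3 (0.03), in which open replicate 2 was highest as well.

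Scgb1a1, the club cell secretory protein of the airways, was listed at 0 on the closed side of each mouse and in open replicate 1, and measured 0.138 and 0.104 FPKM in open replicates 2 and 3. It was below the floor of 1 FPKM and was not tested. Scgb3a1, an airway secretoglobin, measured 21.1 ± 5.81 FPKM closed and 23.7 ± 5.33 FPKM open, with overlapping sides. Of 20 further secretoglobin rows 15 were listed at 0 in every library, and Scgb3a1 was the one that reached the floor.

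Reg3g encodes a lectin that kills Gram-positive bacteria, known from the intestine. It measured 498.6, 841.6 and 749.3 FPKM on the closed side and 596.1, 1125 and 879.6 FPKM on the open side of mice 1, 2 and 3. The sides overlapped, although the closed level was the lower one in 3 of 3 mice, at 83.7%, 74.8% and 85.2% of the open level. The log2 change was -0.30 (SE 0.29, and 0.16 with the mouse as a block), and it lay between -0.55 without open replicate 1 and -0.08 without closed replicate 1. Mouse 1 was lowest on either side.

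The 6 further Reg rows stayed at or under 0.278 FPKM. The nearest profiles to Reg3g were those of Dthd1 (0.08) and of the epithelial transcription factor genes Foxa1 and Ehf (0.09 each).

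Dcpp1, the demilune cell and parotid protein named after cells of the sublingual and parotid glands, measured 12.8, 14.8 and 16.9 FPKM in the closed and 15.5, 10.2 and 18.9 FPKM in the open libraries. Its sides overlapped, with means of 14.9 ± 2.04 FPKM closed and 14.9 ± 4.37 FPKM open and a log2 change of 0.03 (SE 0.21). That sign turned without closed replicate 3 and without open replicate 2, in a range from -0.20 to 0.22 over 13 alternatives. Of the words of 51 bases, the read length, in its longest GENCODE transcript, 46.2% also occur in Dcpp2 or Dcpp3, so reads may be split among the copies. Dcpp3 measured 74.0 ± 14.2 FPKM on the closed and 71.4 ± 28.2 FPKM on the open side, and Dcpp2 measured 8.45 ± 2.63 FPKM closed and 8.38 ± 1.14 FPKM open.

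Open replicate 2 was the lowest library for Dcpp1 and Dcpp3, and the 3 nearest profiles to Dcpp1 were those of the olfactory receptor genes Olfr1234 (0.06), Olfr972 (0.07) and Olfr1182 (0.08). The 12 neuronal markers summed to 4265 FPKM in open replicate 2 and to 5039 or more in the other libraries. The 10 sustentacular markers summed to 8961 FPKM there and to 6796 or less elsewhere. The part of these shifts in the results was not tested.

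Shared sequence was a smaller matter for the other genes. For Klk1 27.8% of such words occur in other genes, chiefly in the Klk1b copies, and for Scgb2b27 1.85%. For Scgb1b27, Scgb1c1, Scgb1a1, Car6 and Reg3g it was 0%. The 25 other kallikrein rows, Klk1b copies among them, stayed at or under 1.71 FPKM in each library and below the floor, and 7 were at 0 in every library. The closed values of Klk1 are low as well. In closed replicate 2 Klk1b26 measured 0.275 FPKM beside 0.0457 FPKM for Klk1, and it stayed at or under 0.000314 FPKM elsewhere. The closed values of Klk1 may thus depend on how shared reads were assigned, which was not tested. Whether the other kallikrein rows differ between the sides as Klk1 does was not tested.

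Among relatives of Car6, no carbonic anhydrase tested had a difference of that size. Of 15 further carbonic anhydrase rows 10 were tested and 0 passed the limma test in either direction, with or without the block, and 0 lay under 0.05 unadjusted. Their log2 changes lay between -0.30 and 0.20, with a median of -0.08 beside -0.01 over all rows tested. In 1 of them the closed side lay below the open side without overlap. The cytosolic Car2 measured 44.1 ± 2.52 FPKM closed and 47.9 ± 7.20 FPKM open, and the membrane-bound Car4, which had the lowest change, 7.82 ± 2.24 FPKM closed and 9.74 ± 1.89 FPKM open. Among the 7 tested lipocalin rows, which leave out Gm14744, 7 had a change below 0, with a median of -2.38, and 5 had no overlap. Among the 8 BPI-fold rows 5 were below 0, with a median of -0.38, and 2 had no overlap. Over all rows tested, 54.0% were below 0 and 2.09% had the closed side lower with no overlap. In limma 0 rows of either family passed the test, while 7 lipocalin and 2 BPI-fold rows lay under 0.05 unadjusted.

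Most genes of gland identity and transport lay near 0. Of 27 tested 0 passed in limma and 2 lay under 0.05 unadjusted. Their median log2 change was -0.12, with 23 below 0, beside 54.0% of all rows tested. The closed side was lower with no overlap in 1 of the 27. Gpx6, a glutathione peroxidase of the olfactory glands, measured 1284 ± 220 FPKM on the closed and 1459 ± 554 FPKM on the open side, and the epithelial water and glycerol channel Aqp3 measured 208.6 ± 23.7 FPKM closed and 219.7 ± 49.7 FPKM open. The lowest change was that of Ltf, lactoferrin, at 81.6 ± 44.9 FPKM closed and 155.5 ± 65.2 FPKM open, with overlapping sides. The 29 rows summed to 2439 to 3008 FPKM in closed and 2393 to 3807 FPKM in open libraries.

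**Figure D4:**
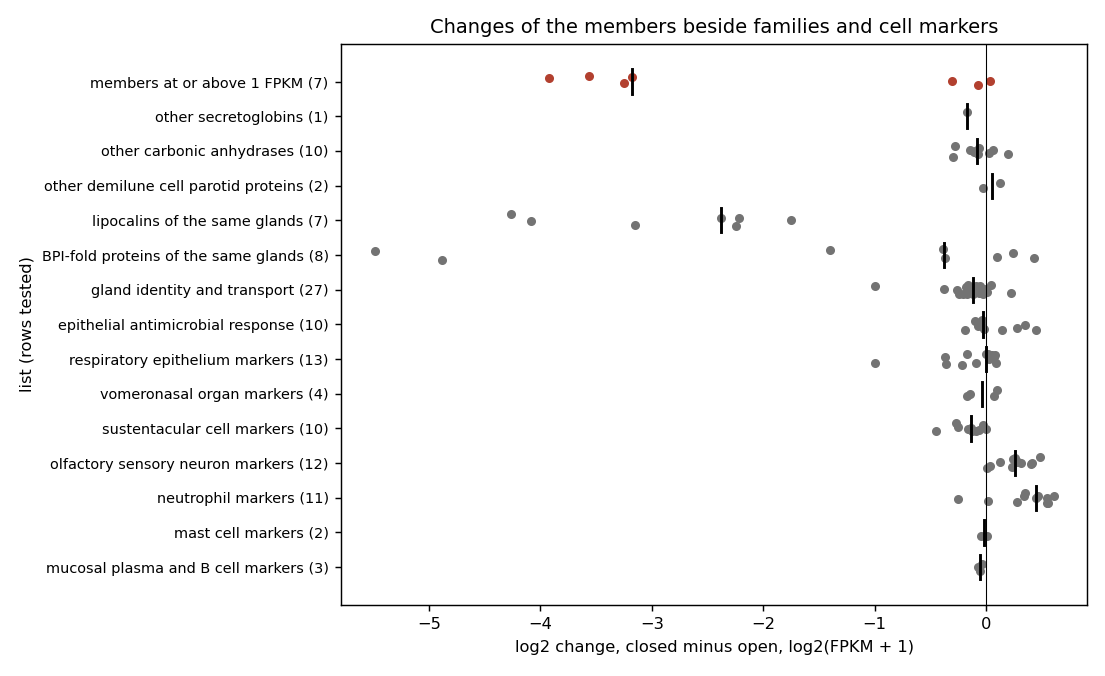
Log2 change, closed minus open, of the tested genes and of each list with tested rows, a dot per gene and a black bar at the median, with the number of rows tested in brackets. The members fall into 4 values below -3 and 3 near 0, and most genes of the cell marker lists lie near 0.

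Markers of other cells showed no difference of that size, and 0 of their rows passed the limma test. Unadjusted, 1 row each of the respiratory, neuronal and neutrophil lists lay under 0.05, and 0 in the other marker lists. Respiratory epithelium markers (13 tested) had a median log2 change of 0.00 and summed to 3660 to 6476 FPKM in closed and 5161 to 8910 FPKM in open libraries, with Tff3 at 0. Vomeronasal markers (4 tested) had a median of -0.04, with Vmn1r1 and Tfap2e at 0 and sums of 114.8 to 147.6 FPKM in closed and 109.3 to 131.5 FPKM in open libraries. Sustentacular markers (10 tested) had a median of -0.13, with 9 below and 1 above 0. Neuronal markers (12 tested) had one of 0.26, with 12 above and 0 below 0. Of all rows tested, 54.0% were below 0.

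Immune markers overlapped between the sides as well. Neutrophil markers (11 tested) had a median of 0.45, with 10 above and 1 below 0. They had sums of 530.9 to 1172 FPKM closed and 585.9 to 908.5 FPKM open. Mast cell markers (2 tested) had a median of -0.02, with Tpsab1 at 0, and sums of 35.2 to 52.8 FPKM closed and 38.9 to 43.2 FPKM open. B cell and plasma cell markers (3 tested) had one of -0.06, with sums of 4.61 to 7.39 FPKM closed and 4.77 to 7.46 FPKM open. Epithelial antimicrobial genes (10 tested), the class to which Reg3g belongs, had a median of -0.03, and Wfdc18, a WAP-domain protein, ranged from 367.4 to 2168 FPKM in closed libraries. The part of these cells in the results was not tested.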

How the data were processed

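The authors deposited 1 FPKM value per gene and library, made with Cufflinks on mm9 per the submitters' processing notes. For the aligner and the annotation the entry is: not given in the sources used here. Deposited with them were a count of reads per library, the fraction aligned, printed here as a percent, and the RNA integrity score. Per the file headers a sheet states that libraries of 1 number come from 1 mouse, which gives the pairing.

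The 14788 rows whose mean reached 1 FPKM were fitted as log2(FPKM + 1) with limma 3.58.1 in R 4.3.3, with a variance trend and Benjamini-Hochberg adjustment at 0.05 over all rows. The mouse block, other pseudocounts, floors and scalings, and each library left out were alternatives.

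FPKM steps of low rows gave the relative worth of 1 fragment per library. Of 4159 values of such rows 83.6% came out whole within 0.1, where an even spread would give 20%. The worth was set on low rows of the same kind, so this share is not an independent check. It does not cover reads split among gene copies, and it does not cover high counts. No count test was run on them.

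The genes and the 16 lists were chosen with earlier results of these data known. Named genes are the 8 members, the 3 nearest profiles of each tested one, and, of each list, up to 3 by level and up to 2 by change. Lcn3 and Bpifb9b fall under that rule. Tff3, Vmn1r1, Tfap2e and Tpsab1 are named because they were at 0, and Scgb1a1 because it is a member. The main fit has no mouse term, so its p-values measure the spread of the 3 libraries within a side. Those of the block fit measure the spread of the difference between sides over 3 mice.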

Additional observations from a re-analysis of the deposited data

How the results depend on the processing

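Over 13 alternatives, the log2 changes of Scgb1b27, Scgb2b27, Klk1, Car6 and Reg3g kept their sign, and those of Scgb1c1 and Dcpp1 changed it in 1 and 2. The change of Scgb1b27 ranged from -4.33 to -2.77, that of Scgb2b27 from -4.85 to -2.96, that of Klk1 from -5.09 to -1.67 and that of Car6 from -4.17 to -2.07. The count of rows called was 6 lower and 1 higher, and 4 lower and 1 higher with the replicate block, where the numbers pair libraries of 1 mouse. The block changed no call among the 7 tested genes. With no floor 3 rows were lower, and with small RNA rows left out 0 rows were higher and 8 lower. With each library left out, 3 to 10 rows were lower and 1 to 2 higher. The genes with sides that did not overlap numbered 4 to 5 with each library left out, an alternative chosen after seeing the data, as were the pooled percentages of Klk1 and Car6 without a library. Reg3g was the fifth without open replicate 1, where 10.3% of all rows had the closed side lower with no overlap, and that share was 3.73% to 7.58% with another library left out. Depth limits Klk1 on the closed side and Car6 in closed replicate 2, where few fragments stand behind a value.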

Other observations

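Klk14, a kallikrein below the floor and named after its values were seen, measured 0.103 and 0.141 FPKM in closed replicates 1 and 3, was listed at 0 in closed replicate 2, and measured 0.768, 1.02 and 0.136 FPKM in open replicates 1, 2 and 3. In FPKM its highest open library was that of mouse 2 and its lowest that of mouse 3. If its lowest library held 1 fragment, open replicates 1 and 2 would hold about 13.5 and 14.0. The order of these libraries is therefore not resolved.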
